A study of Mus musculus with 12 samples.

Results

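The genes described here are 48 genes of the cell cycle and of DNA replication, taken by symbol from the 17920 genes that each of 12 mouse lung RNA-seq libraries lists. They comprise 19 replication genes, 4 regulators of the passage from G1 into S phase, and 25 mitotic genes. Lungs came from male BALB/c mice aged 6 to 8 weeks, and 3 of the 6 mice of each group were sequenced after 14 days, with 1 library of polyadenylated RNA per mouse. The groups were LPS with bovine lactoferrin (LPS+bLF), LPS alone, bovine lactoferrin alone (bLF), and an untreated control. LPS, the endotoxin of Gram-negative bacteria, was given as 50 µL at 1 µg/µL, and lactoferrin, a milk glycoprotein that binds iron, at a daily dose of 200 mg/kg. How LPS was delivered, and on which day, is not stated in the labels.

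Cells copy their DNA in S phase and divide it in mitosis, and the genes for these steps are transcribed in waves. Before S phase, Cdc6 and Cdt1 load the helicase made of Mcm2 to Mcm7 on replication origins, and E2F factors, held back by the retinoblastoma protein until cyclin D and cyclin E kinases act, switch on many replication genes. Mitotic genes peak later, in G2 and M, and many are controlled through a promoter element called CHR together with CCAAT boxes, which NF-Y binds. The adult lung renews slowly, so the RNA of many of these genes, though not of all, marks the few cells that cycle. Among such cells are macrophages, lymphocytes and alveolar type 2 cells.

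The promoters of both classes can be read directly, and 7 are shown: promoters of both classes that hold several motif matches, and those of Rrm2 and Birc5, members the results turn on. In the RefSeq promoter table for GRCm38.p6, 37 of the 48 members had an entry of 250 bases before and 50 after the transcription start. A set of 3 motif families were searched on both strands: the E2F site as TTTCCCGC, TTTGGCGC, TTTCGCGC or TTTGCCGC, the CHR as TTTGAA or TTCGAA, and the CCAAT box as CCAAT, which reads ATTGG on the other strand. TTCGAA is its own reverse complement, and 2 E2F matches on opposite strands can share the letters GCGC. For Mcm5, Mki67 and Top2a the start of the promoter entry lies inside the gene coordinates given further below, so the stretch overlaps the gene. Each line below holds the 150 bases before the start of the promoter entry, 5′ to 3′ on the strand of the gene, with every match in capitals.
Mcm6: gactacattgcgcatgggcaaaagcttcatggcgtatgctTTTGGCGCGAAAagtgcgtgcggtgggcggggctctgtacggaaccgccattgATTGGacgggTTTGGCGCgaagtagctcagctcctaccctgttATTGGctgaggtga
Mcm5: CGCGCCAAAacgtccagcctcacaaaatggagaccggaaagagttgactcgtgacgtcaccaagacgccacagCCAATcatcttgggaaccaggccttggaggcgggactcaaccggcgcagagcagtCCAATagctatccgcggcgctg
Rrm2: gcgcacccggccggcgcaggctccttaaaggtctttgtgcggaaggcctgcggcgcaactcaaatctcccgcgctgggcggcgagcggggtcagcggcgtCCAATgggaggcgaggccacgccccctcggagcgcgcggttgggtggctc
Cdk1: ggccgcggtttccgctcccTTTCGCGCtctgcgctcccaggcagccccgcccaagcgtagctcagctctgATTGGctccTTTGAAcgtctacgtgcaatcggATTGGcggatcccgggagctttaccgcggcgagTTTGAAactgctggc
Mki67: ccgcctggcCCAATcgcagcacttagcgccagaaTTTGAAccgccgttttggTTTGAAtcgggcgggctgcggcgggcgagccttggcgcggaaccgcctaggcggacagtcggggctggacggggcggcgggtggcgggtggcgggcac
Top2a: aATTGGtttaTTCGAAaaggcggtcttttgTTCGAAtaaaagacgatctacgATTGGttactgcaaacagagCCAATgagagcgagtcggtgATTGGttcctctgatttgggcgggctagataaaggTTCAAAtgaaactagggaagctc
Birc5: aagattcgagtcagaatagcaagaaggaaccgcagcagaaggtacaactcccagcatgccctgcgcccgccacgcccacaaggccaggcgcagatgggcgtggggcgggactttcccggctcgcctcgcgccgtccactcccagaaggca
The printed stretches lie at chr1:128359706-128359855 on the minus strand (Mcm6), chr8:75109359-75109508 on the plus strand (Mcm5), chr12:24708104-24708253 on the plus strand (Rrm2), chr10:69352913-69353062 on the minus strand (Cdk1), chr7:135716380-135716529 on the minus strand (Mki67), chr11:99024190-99024339 on the minus strand (Top2a) and chr11:117849087-117849236 on the plus strand (Birc5).

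Mcm6, a helicase subunit, held 3 E2F matches, a pair of which overlap. Mcm5 held an overlapping pair of E2F matches, of which one begins 3 bases before the printed stretch, and 2 CCAAT boxes in it. Mki67, the proliferation marker Ki-67, held 2 CHR matches in the printed stretch, and Top2a, the topoisomerase that untangles chromosomes, held 3 CHR matches there. Cdk1, the kinase that drives entry into mitosis, was the only mitotic member with a match of each family. Rrm2, the small subunit of ribonucleotide reductase, held a CCAAT box alone, and Birc5 (survivin, of the chromosomal passenger complex) held no match in the 300 bases.

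An E2F match was found in 7 of 16 replication promoters (43.8%) and in 1 of 19 mitotic promoters (5.26%), beside 3.95% of the promoters of 14139 genes in the files. The CHR was found in 14 of 19 mitotic promoters (73.7%) and in 4 of 16 replication promoters (25%), beside 17.4% of the genes in the files. The CCAAT box was found in 16 of 19 mitotic promoters (84.2%) and in 10 of 16 replication promoters (62.5%), beside 42.2% of the genes in the files. Over all 32851 promoters of the table the shares were 2.26% for the E2F site, 19.2% for the CHR and 37.4% for the CCAAT box. A match describes the letters of this window and does not show binding. The 11 members without an entry were Mcm4, Gins2, Pole, Ccnd1, Ccne2, Ccna2, Foxm1, Aurkb, Kif20a, Tpx2 and Stmn1.

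**Figure D1:**
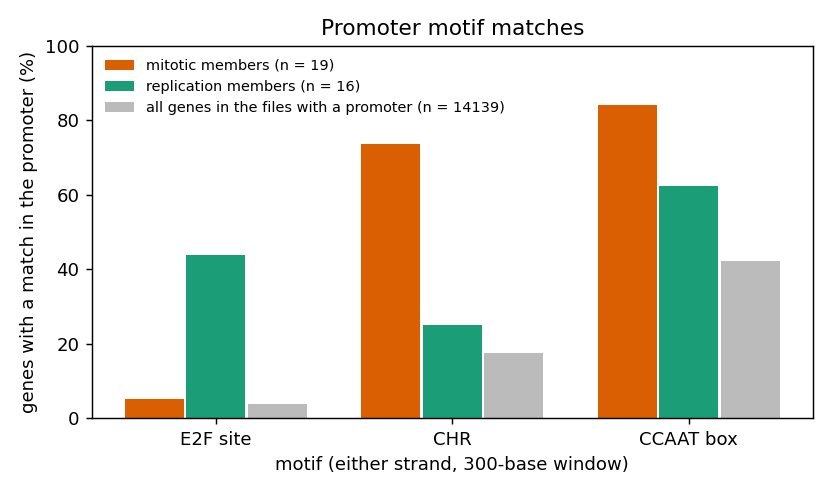
Share of promoters (%, vertical axis) that held each motif on either strand of the 300-base window, for mitotic members (n = 19), replication members (n = 16) and all genes in the files with a promoter (n = 14139). The E2F site was found in 43.8% of replication promoters, and the CHR in 73.7% of mitotic promoters.

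Total counts ranged from 16714327 to 17820645 per library, and a gene with no count could still have had 0.168 to 0.179 CPM (a limit of 3 counts, covering counting error only). LPS replicate 1 stood apart: its median correlation with the other libraries was 0.9391, against 0.9619 to 0.9877 for the other 11, and 3067 genes were at 0 in it, against 1499 to 1963. Scgb1a1, a secretoglobin of the airways, made up 23.8% of control replicate 2, where the other 11 libraries had 1.68 to 7.43%, so FPKM (a level per unit of gene length and of sequencing depth) of other genes reads low in that library. For this reason overlaps of groups and tests use CPM, which is a count as a share of its TMM-scaled library total. FPKM is given as the level per gene length, and ranks are by CPM unless FPKM is named with them. All 9 markers of lung epithelium, endothelium and stroma were detected in every library, with a summed level of 63480 to 325800 CPM. The lowest sum was that of LPS replicate 1. By FPKM Sftpc, Sftpb, Scgb1a1 and Foxj1 were the lowest of the 12 in that library. Cldn5 (1349.33, against 479.21 to 710.74 elsewhere), Col1a1 (64.4, against 15.67 to 32.48) and Pdgfra (27.12, against 9.61 to 21.04) were the highest there. The labels name the mice but no shared litter, cage or date.

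Levels differed widely between members. Stmn1, a microtubule-destabilising protein that is also made outside mitosis, had the highest level, 152.49 to 444.95 FPKM over the 12 libraries. Pcna, the sliding clamp of replication and repair, ranged from 44.05 to 63.72 FPKM, and Ccnd1, cyclin D1, from 29.88 to 71.22 FPKM. At the other end Ccnb1, cyclin B1, lay between 0.11 and 0.27 FPKM, which is 4 to 10 counts. Of the 48 members, 43 reached the 0.5 FPKM in at least 3 libraries needed for a test. The 5 below it were Cdc6 (0.10 to 0.41 FPKM), Pole (0.15 to 0.36 FPKM), Ccnb1, Kif11 (0.18 to 0.50 FPKM) and Cenpe (0.13 to 1.02 FPKM). Reads of Ccnb1, Pcna, Mcm7, Stmn1, Cdc6, Mad2l1 and Rrm2 could be shared with processed pseudogenes, which match a transcript of the gene over at least 300 bases at 95% identity or more, so their levels are less certain. The longest such match of Ccnb1, of 1294 bases, has 98.145% identity, and Pcna-ps2 matches Pcna over 781 bases at 99.232%. Fen1 overlaps the antisense gene Gm10143 over 1911 bases, and no source used here says whether the counting used strand. Gins2 shares 2758 bases with Gse1. Kif20a, Ccnd1, Prc1, Ccne2 and Ccna2 also share at least 300 bases with another gene (Cdc23, LTO1, Rccd1, Ints8 and Exosc9). Tyms matches transcripts of several other genes over at least 300 bases at 95% identity or more. The levels of these members are less certain too.

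**Figure D2:**
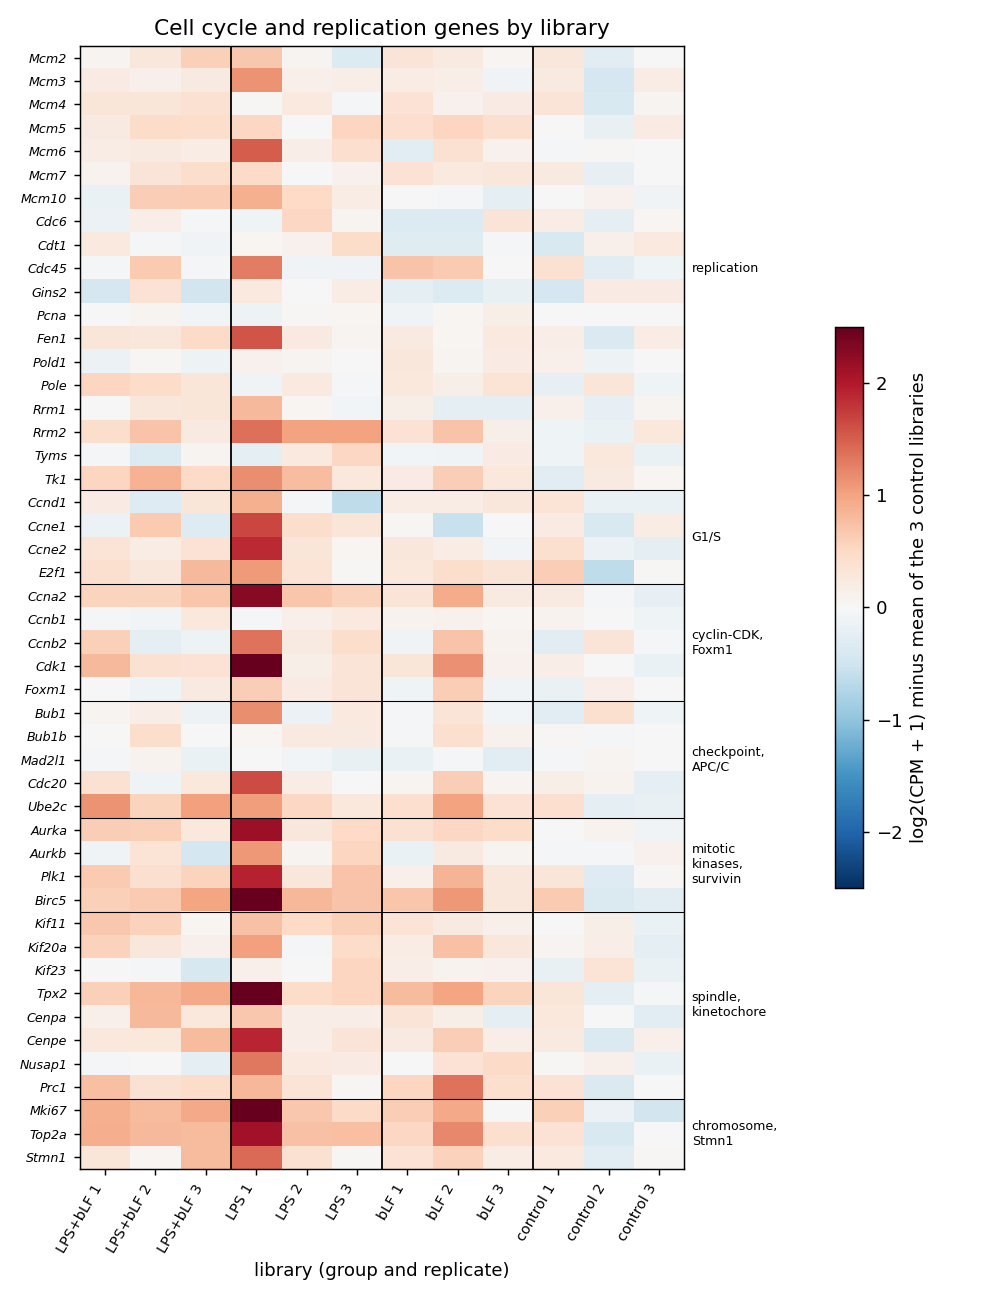
Rows are the 48 members, columns the 12 libraries in the order LPS+bLF, LPS, bLF and control, and colour gives log2(CPM + 1) minus the mean of the 3 control libraries (the scale ends at ±2.5). LPS replicate 1 is the darkest column, with the highest CPM of the 12 libraries for 32 of the 48 members.

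Cell cycle genes were higher on average in LPS lungs than in control lungs, mitotic genes more so than replication genes, and the size of that difference rested largely on 1 LPS lung. In LPS+bLF and in bLF lungs these genes were also higher on average than in control lungs. With edgeR no member and no other gene passed an adjusted p under 0.05 in any of the 6 comparisons, so the share called was 0% in each, and DESeq2, run as an alternative, called 1 member. The values below are therefore levels and fitted differences, and Rrm2 is the member with the smallest p. In whole-tissue RNA, a change in the number of cycling cells and a change in RNA per cycling cell cannot be told apart.

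Among the replication genes, the helicase subunits varied by gene, and Mcm6 had the largest fitted difference of Mcm2 to Mcm7 for LPS over control. Mcm2 (ID 17216, chromosome 6, 88883474 to 88898780) was at 7.61, 8.31 and 10.74 FPKM in LPS+bLF lungs, 9.74, 8.06 and 5.64 in LPS lungs, 9.19, 8.33 and 7.13 in bLF lungs, and 9.38, 5.37 and 7.39 in control lungs. The 4 groups overlapped, and the log2 fold change of LPS over control was 0.18 ± 0.26 (SE, 3 libraries per group). Mcm5 (ID 17218, chromosome 8, 75109468 to 75128439) was at 3.15, 3.48 and 3.56 FPKM in LPS+bLF lungs, 3.24, 2.77 and 3.97 in LPS lungs, 3.63, 3.91 and 3.44 in bLF lungs, and 2.77, 2.05 and 3.16 in control lungs. All 3 bLF lungs lay above the 3 control lungs (log2 fold change 0.49 ± 0.20, adjusted p = 1). Mcm6 (ID 17219, chromosome 1, 128331575 to 128359705) was at 5.57, 2.67 and 3.03 FPKM in LPS lungs, against 2.23, 2.0 and 2.23 in control lungs, without overlap (0.93 ± 0.35, adjusted p = 0.646). LPS replicate 1 supplied most of the Mcm6 difference, which was 0.34 ± 0.22 without it. Mcm3 was also highest in LPS replicate 1, at 12.18 FPKM, against 4.28 to 8.18 in the other 11 libraries, whereas Mcm4 was at 4.46 FPKM there, within the 3.59 to 7.03 FPKM of all libraries.

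Mcm10, Cdc45 and Gins2 help to turn the loaded helicase on. Mcm10 was at 0.24, 0.53 and 0.47 FPKM in LPS+bLF lungs, 0.73, 0.57 and 0.38 in LPS lungs, 0.30, 0.30 and 0.22 in bLF lungs, and 0.33, 0.34 and 0.26 in control lungs. Its LPS lungs lay above the control lungs (0.92 ± 0.45), and LPS+bLF over bLF gave 0.88 ± 0.45 (adjusted p = 1), with overlap. Cdc45 reached 4.01 FPKM in LPS replicate 1, against 1.66 and 1.52 in the other LPS lungs and 1.13 to 2.53 in control lungs. Gins2 and the licensing factor Cdt1 overlapped between LPS and control lungs, with 0.25 ± 0.60 and 0.24 ± 0.29.

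Pcna and Pold1, of the clamp and polymerase genes, stayed within narrow ranges. Pcna (ID 18538, chromosome 2, 132249286 to 132253180) was at 58.61, 57.57 and 54.03 FPKM in LPS+bLF lungs, 44.05, 63.72 and 60.69 in LPS lungs, 55.18, 60.01 and 62.35 in bLF lungs, and 62.51, 52.73 and 60.70 in control lungs. The lowest Pcna level of the 12 was that of LPS replicate 1. LPS over control gave -0.01 ± 0.12 for Pcna, a sign that turns with RLE size factors (0.01). Pold1, the catalytic subunit of polymerase delta, was at 5.10, 5.43 and 4.98 FPKM in LPS+bLF lungs, 5.10, 6.35 and 5.58 in LPS lungs, 7.0, 5.98 and 6.31 in bLF lungs, and 6.63, 4.65 and 5.91 in control lungs. LPS+bLF and bLF lungs did not overlap for Pold1 (-0.28 ± 0.13, adjusted p = 1). Fen1, the nuclease that trims Okazaki fragments, was at 11.88 FPKM in LPS replicate 1 and 2.99 to 6.16 FPKM in the other 11 libraries.

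The genes of nucleotide supply include the member with the smallest p for LPS over control. Rrm2 (ID 20135, chromosome 12, 24708254 to 24714146), whose protein limits the making of deoxynucleotides, was at 1.13, 1.38 and 0.87 FPKM in LPS+bLF lungs, 2.17, 2.04 and 1.93 in LPS lungs, 1.04, 1.45 and 0.78 in bLF lungs, and 0.64, 0.51 and 0.97 in control lungs. These levels rest on 66 to 71 counts in LPS lungs and 17 to 33 counts in control lungs. All 3 LPS lungs lay close together and above the other 9 libraries, with means of 2.05 ± 0.120 FPKM in LPS and 0.707 ± 0.237 FPKM in control (SD, n = 3 each). The log2 fold change of LPS over control was 1.61 ± 0.35 (adjusted p = 0.196, edgeR), and without LPS replicate 1 it was 1.44 ± 0.35 (adjusted p = 0.216). With DESeq2 Rrm2 was the single member called (1.63, adjusted p = 0.00356). LPS+bLF over LPS gave -0.88 ± 0.34 (adjusted p = 0.689) for Rrm2, again without overlap.

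Tk1, thymidine kinase of the salvage pathway, was at 4.29, 5.38 and 3.83 FPKM in LPS+bLF lungs, 6.11, 5.63 and 3.15 in LPS lungs, 3.28, 4.56 and 3.08 in bLF lungs, and 2.16, 3.09 and 2.78 in control lungs. Each LPS and each LPS+bLF lung lay above all control lungs, with 0.99 ± 0.34 (adjusted p = 0.589) for LPS over control and 0.83 ± 0.34 (adjusted p = 0.832) for LPS+bLF over control. Rrm1, the large subunit of ribonucleotide reductase, was at 6.12, 6.98 and 7.29 FPKM in LPS+bLF lungs, 9.0, 6.69 and 5.80 in LPS lungs, 6.78, 5.09 and 4.85 in bLF lungs, and 7.09, 4.74 and 6.55 in control lungs. Rrm1 thus did not follow Rrm2, and its groups overlapped. Tyms, thymidylate synthase, had its lowest FPKM of the 12 in LPS replicate 1, at 1.35, while LPS replicates 2 and 3 were at 2.60 and 3.15. By CPM, LPS+bLF replicate 2 was lower for Tyms, at 5.84 against 6.51 in LPS replicate 1.

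The 4 regulators of S phase entry were highest by FPKM in LPS replicate 1. Ccnd1 (ID 12443, chromosome 7, 144929931 to 144939831) was at 53.46, 34.29 and 54.62 FPKM in LPS+bLF lungs, 71.22, 47.82 and 29.88 in LPS lungs, 53.10, 51.82 and 53.78 in bLF lungs, and 62.30, 37.06 and 42.29 in control lungs. The LPS lungs thus held both the highest and the lowest Ccnd1 level, and LPS over control was 0.19 ± 0.33 with all libraries and -0.33 ± 0.25 without LPS replicate 1. Cyclin E genes, which drive the start of S phase, were at 2.59 FPKM (Ccne1) and 2.08 FPKM (Ccne2) in LPS replicate 1, against at most 1.16 and 0.61 FPKM elsewhere. E2f1 was at 9.0 FPKM in LPS replicate 1 and 2.75 to 8.68 FPKM in the other libraries.

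**Figure D3:**
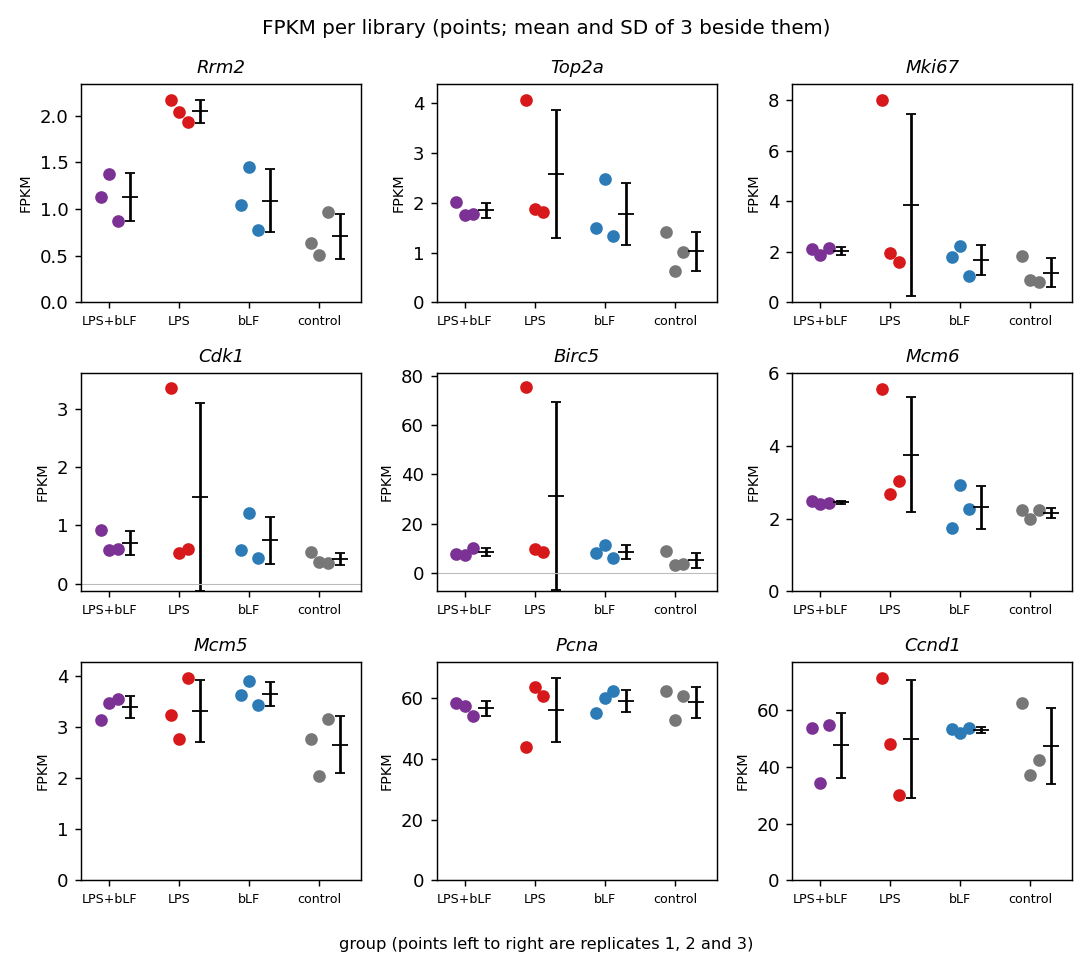
FPKM (vertical axes) of 9 members in each library by group, with replicates 1, 2 and 3 from left to right and the mean and SD of the 3 beside them. Rrm2 is high in all 3 LPS libraries (1.93 to 2.17 FPKM), whereas Mki67, Cdk1, Birc5 and Mcm6 stand out in LPS replicate 1.

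Among mitotic cyclins and Cdk1, LPS replicate 1 stood far from the rest. Cdk1 (ID 12534, chromosome 10, 69335146 to 69352912) was at 0.93, 0.58 and 0.59 FPKM in LPS+bLF lungs, 3.35, 0.53 and 0.59 in LPS lungs, 0.58, 1.21 and 0.45 in bLF lungs, and 0.54, 0.38 and 0.36 in control lungs. LPS replicate 1 was 5.78 times the median of the other 11 libraries, while LPS replicates 2 and 3 lay beside control replicate 1. LPS over control gave 1.99 ± 0.74 for Cdk1 with all libraries and 0.35 ± 0.42 without LPS replicate 1. Ccna2, cyclin A2 of S phase and G2, was at 1.97, 1.84 and 2.12 FPKM in LPS+bLF lungs, 6.01, 2.36 and 2.02 in LPS lungs, 1.64, 2.61 and 1.44 in bLF lungs, and 1.61, 1.09 and 1.07 in control lungs. All LPS lungs lay above all control lungs for Ccna2 (1.61 ± 0.46, adjusted p = 0.435, and 0.75 ± 0.27 without LPS replicate 1).

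Ccnb1, below the filter, was at 0.14, 0.11 and 0.27 FPKM in LPS+bLF lungs, 0.11, 0.22 and 0.27 in LPS lungs, 0.20, 0.19 and 0.16 in bLF lungs, and 0.20, 0.14 and 0.11 in control lungs. At 4 to 10 counts no difference was detectable for Ccnb1, and in LPS replicate 1, where its partner Cdk1 was highest, it had 4 counts. Ccnb2, the other B-type cyclin, was at 4.17 FPKM in LPS replicate 1 and 1.10 to 2.91 FPKM elsewhere. Foxm1, a transcription factor of mitotic genes, was at 1.17, 1.06 and 1.10 FPKM in LPS lungs, against 0.75, 0.87 and 0.85 in control lungs, a narrow difference without overlap (0.48 ± 0.30).

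Birc5, Aurka, Aurkb and Plk1 form the group of mitotic kinases and survivin, which had the highest median of the mitotic roles for LPS over control, 1.55. Birc5 (ID 11799, chromosome 11, 117849237 to 117855743) was at 7.63, 7.19 and 10.14 FPKM in LPS+bLF lungs, 75.25, 9.83 and 8.42 in LPS lungs, 8.08, 11.34 and 5.88 in bLF lungs, and 8.65, 3.11 and 3.47 in control lungs. LPS replicate 1, at 9.31 times the median of the other 11 libraries, had 954 counts of Birc5, against 133 and 116 in the other LPS libraries. LPS over control gave 2.81 ± 0.82 (adjusted p = 0.453) and, without LPS replicate 1, 0.83 ± 0.39. LPS+bLF over LPS gave -2.0 ± 0.79 (adjusted p = 0.689) and, without LPS replicate 1, -0.01. Aurkb, of the passenger complex that also holds survivin, was at 0.42, 0.73 and 0.20 FPKM in LPS+bLF lungs, 1.41, 0.57 and 0.98 in LPS lungs, 0.37, 0.66 and 0.52 in bLF lungs, and 0.48, 0.40 and 0.58 in control lungs. Its LPS+bLF and LPS lungs overlapped (-1.19 ± 0.56, adjusted p = 0.689). Aurka, the centrosome kinase, lay higher in all 3 LPS lungs (4.64, 1.2 and 1.40 FPKM) than in control lungs (0.86, 0.81 and 0.75 FPKM).

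Checkpoint genes hold the anaphase-promoting complex in check until chromosomes are aligned, and Cdc20 and Ube2c work with that complex. Ube2c was at 14.81, 8.94 and 13.29 FPKM in LPS+bLF lungs, 11.21, 9.85 and 7.46 in LPS lungs, 8.55, 13.38 and 7.77 in bLF lungs, and 9.04, 4.38 and 5.28 in control lungs. Ube2c was the member with the smallest p for LPS+bLF over control (1.04 ± 0.34, adjusted p = 0.832), and its groups did not overlap on the CPM scale. Cdc20 was at 9.34 FPKM in LPS replicate 1 and 2.69 to 5.20 FPKM elsewhere. Mad2l1, by contrast, stayed within 2.5 to 3.29 FPKM over all libraries, and it was 1 of the 2 tested members with a lower mean in LPS lungs (-0.09 ± 0.20), Pcna being the other.

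Spindle and kinetochore members varied by gene. Nusap1, a spindle microtubule protein, was at 0.33, 0.34 and 0.24 FPKM in LPS+bLF lungs, 1.27, 0.54 and 0.48 in LPS lungs, 0.37, 0.58 and 0.64 in bLF lungs, and 0.40, 0.39 and 0.29 in control lungs. All LPS+bLF lungs lay below all LPS lungs (-1.41 ± 0.52, adjusted p = 0.689), on 10 to 14 counts against 20 to 51. Prc1, which bundles the microtubules of the central spindle, was at 2.39, 1.66 and 1.85 FPKM in LPS+bLF lungs, 2.11, 1.83 and 1.32 in LPS lungs, 2.03, 3.81 and 1.72 in bLF lungs, and 1.84, 0.83 and 1.31 in control lungs. Prc1 was the member with the smallest p for bLF over control (0.96 ± 0.37, adjusted p = 1), highest in bLF replicate 2, and it was 0.54 without that library. The spindle assembly factor Tpx2 was higher in each LPS lung (5.39, 1.74 and 2.01 FPKM) than in control lungs (1.59, 0.87 and 1.04 FPKM). Kif11, the motor that pushes spindle poles apart, was at 0.44, 0.44 and 0.45 FPKM in LPS lungs, against 0.25, 0.25 and 0.18 in control lungs, and was too low to be tested.

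Mki67 and Top2a, both used as marks of cycling cells, had higher mean levels in LPS lungs. Mki67 (ID 17345, chromosome 7, 135689784 to 135716450) was at 2.13, 1.87 and 2.15 FPKM in LPS+bLF lungs, 8.01, 1.96 and 1.59 in LPS lungs, 1.78, 2.22 and 1.06 in bLF lungs, and 1.85, 0.89 and 0.80 in control lungs. LPS replicate 3 lay below control replicate 1, so these groups overlapped (1.89 ± 0.63, adjusted p = 0.557, and 0.55 without LPS replicate 1). Top2a (ID 21973, chromosome 11, 98992947 to 99024199) was at 2.02, 1.75 and 1.78 FPKM in LPS+bLF lungs, 4.07, 1.88 and 1.81 in LPS lungs, 1.5, 2.48 and 1.33 in bLF lungs, and 1.41, 0.64 and 1.02 in control lungs. Every LPS and every LPS+bLF lung lay above every control lung for Top2a. Its log2 fold changes over control were 0.92 ± 0.41 (adjusted p = 0.832) for LPS+bLF, 1.48 ± 0.42 (adjusted p = 0.432) for LPS and 0.83 ± 0.41 (adjusted p = 1) for bLF.

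Taking LPS against control for the 43 tested members, 41 had a higher fitted mean in LPS lungs, and 2 a lower one, beside 45.8% higher and 54.2% lower over all 13735 genes tested. At an unadjusted p under 0.05, 14 members were higher and 0 lower, where 5.52% of all genes were higher and 1.62% lower. The LPS libraries did not overlap the control libraries for 13 members, all higher, where 4.87% of all genes were apart and higher and 4.59% apart and lower. The median log2 fold change was 0.72 over the tested members and -0.04 over all genes. By class the median was 0.32 for 17 replication members, 0.97 for 4 G1/S members and 0.96 for 22 mitotic members. Among mitotic roles it was 1.48 for Mki67, Top2a and Stmn1, 1.31 for cyclins, Cdk1 and Foxm1, 0.72 for checkpoint genes and 0.65 for spindle genes.

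Without LPS replicate 1 the same comparison gave 38 higher and 5 lower members, and a median of 0.33 (0.14 for replication, 0.21 for G1/S and 0.41 for mitotic members) beside -0.04 for all genes. In the same fit the member median over control was 0.32 for LPS+bLF and 0.27 for bLF, close to that for LPS. The mitotic medians over control were 0.50 for LPS+bLF and 0.55 for bLF, no smaller than that for LPS. At an unadjusted p under 0.05, 5 members were then higher (Rrm2, Ccna2, Top2a, Tpx2 and Aurka), where 3.83% of all genes were, and 25 genes of all those tested passed the adjusted threshold, none of them a member. LPS replicates 2 and 3 both lay above all control lungs for 14 of the 43 tested members (32.6%), beside 9.57% of all genes.

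**Figure D4:**
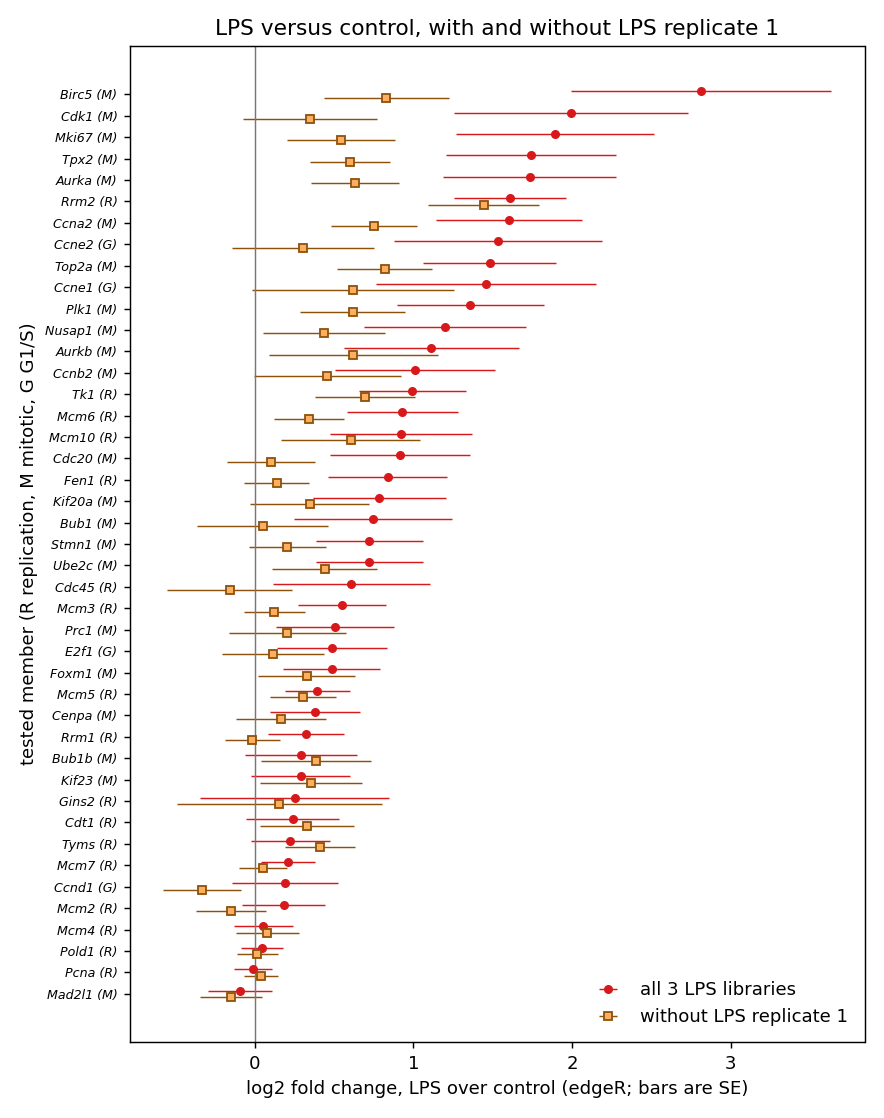
Log2 fold change of LPS over control (horizontal axis, bars are SE) for the 43 tested members, with all 3 LPS libraries (red circles) and without LPS replicate 1 (orange squares). Birc5, Cdk1 and Mki67 move from 2.81, 1.99 and 1.89 to 0.83, 0.35 and 0.55, whereas Rrm2 moves from 1.61 to 1.44.

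To set replication against mitosis within each lung, log2(CPM + 1) minus its control mean was averaged over the 19 replication and the 25 mitotic members. For replication these averages were 0.11, 0.31 and 0.21 in LPS+bLF lungs, 0.59, 0.22 and 0.18 in LPS lungs, 0.13, 0.14 and 0.11 in bLF lungs, and 0.03, -0.08 and 0.05 in control lungs. For mitosis they were 0.41, 0.34 and 0.33 in LPS+bLF lungs, 1.42, 0.29 and 0.36 in LPS lungs, 0.24, 0.63 and 0.17 in bLF lungs, and 0.14, -0.04 and -0.10 in control lungs. All 9 treated lungs lay above all control lungs on both averages. This did not hold for the 37 other replication and 31 other mitotic genes described further below. Averaged in the same way, the other replication genes were at -0.02 and -0.01 in LPS replicates 2 and 3, against 0.02 in control replicate 1. The other mitotic genes were at 0.03 in bLF replicate 3, against 0.13 in control replicate 1. The mitotic average of the members exceeded their replication average by 0.83 in LPS replicate 1 and by 0.49 in bLF replicate 2. In LPS replicates 2 and 3 it did so by 0.07 and 0.18. Over groups the excess was 0.15 ± 0.13 in LPS+bLF, 0.36 ± 0.41 in LPS, 0.22 ± 0.24 in bLF and 0.00 ± 0.14 in control (SD, n = 3 each), so its spread within groups was about as large as its size. Adding 1 draws low members towards 0, and untested ones such as Ccnb1 (0.215 to 0.57 CPM) are included. Many mitotic members were at a few CPM, so the mitotic excess can read too small on this scale.

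Since LPS replicate 1 had the highest CPM for 32 of the 48 members (10 of 19 replication and 18 of 25 mitotic), where 28.3% of all genes tested were highest in that library, its marker genes are given beside this. Summed over 11 neutrophil markers it held 666.5 CPM, against 91.93 and 113.2 in the other LPS lungs and 64.85 to 213 over the other 11 libraries. By FPKM 6 of the 11 were highest of the 12 libraries there, led by S100a9 (607.34, against 89.97 to 264.74 elsewhere) and Retnlg (593.58, against 18.64 to 39.87), while S100a8, Csf3r, Cxcr2 and Ly6g lay within the range of the other libraries. Its 11 macrophage and monocyte markers summed to 1163 CPM, against 474.8 and 594.5 in the other LPS lungs and 240.3 to 304.8 in control lungs. That sum rested on 3 genes that were highest there by FPKM, Marco (249.39, against 0.24 to 36.44 elsewhere), Chil3 (176.58, against 24.83 to 116.23) and Mrc1 (19.34, against 3.70 to 10.34). By FPKM the other 8 were below both other LPS lungs, and Csf1r, at 12.75 FPKM, was the lowest of the 12. FPKM is not TMM-scaled, and the TMM factor was 0.8544 there, against 1.0923 and 1.0261 in LPS replicates 2 and 3. Narrow gaps in FPKM may therefore turn on the CPM scale. Erythroid markers (7 genes) were at 46790 CPM there and 6676 to 41270 CPM over the other libraries. Summed lymphocyte markers were low there. The 5 NK cell markers, each the lowest of the 12 by FPKM, summed to 7.91 CPM. Against this stood 145.6 and 158.2 CPM in the other LPS lungs and 41.38 to 46.29 CPM in control lungs. The 5 B cell markers in the files summed to 52.94 CPM there and 67.15 to 546.3 CPM elsewhere, and 4 T cell markers to 10.01 CPM there and 14.78 to 60.64 CPM elsewhere. By FPKM Cd79b, Pax5 and Cd3d lay within the range of the other libraries, and the other B and T cell markers were lowest there. Of precursor markers, Mpo, of neutrophil precursors, was at 0.62 FPKM there, above the 0 to 0.34 FPKM of the other libraries. Elane was listed at 0 there and in 3 other libraries, and Klf1, of erythroid precursors, was at 0.05 FPKM there and 0.05 to 0.37 elsewhere. What part these cell types had in the levels of the 48 genes was not tested.

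**Figure D5:**
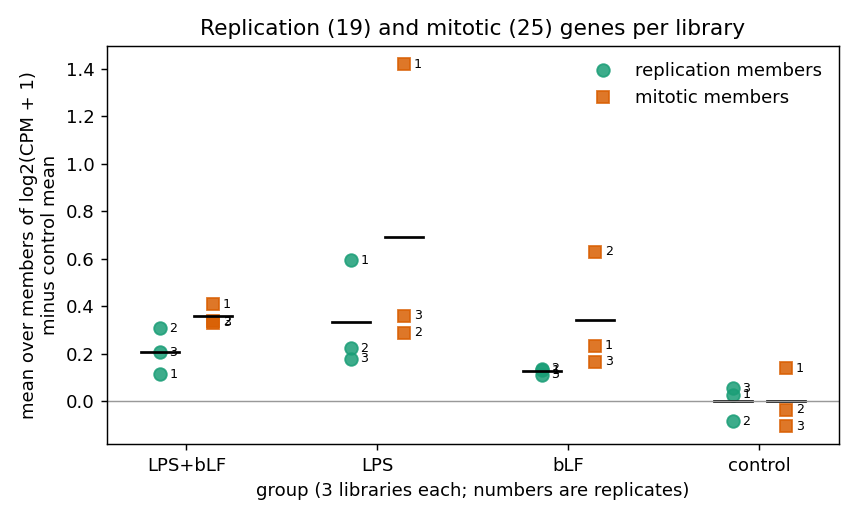
Mean over the replication members (green circles) and over the mitotic members (orange squares) of log2(CPM + 1) minus the control mean (vertical axis), per library by group, with replicate numbers and group means (black bars). LPS replicate 1 has the highest mitotic average, 1.42, and the control libraries lie between -0.10 and 0.14.

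LPS+bLF against LPS asked how the genes differed when lactoferrin was given with LPS. Of the 43 tested members 9 had a higher and 34 a lower fitted mean in LPS+bLF lungs, beside 47.9% higher and 52.1% lower over all genes. At an unadjusted p under 0.05, 3 members were lower (Nusap1, Rrm2 and Birc5), where 3.65% of all genes were lower and 3.27% higher. LPS+bLF and LPS libraries were apart for Nusap1 and Rrm2, both lower, and for Mcm4, which was higher, where 5.19% of all genes were apart and lower and 4.99% apart and higher. The medians were -0.38 over the tested members, -0.21 for replication, -0.70 for mitotic members and -0.02 for all genes. Without LPS replicate 1 the direction of these medians turned, to 0.10 over all tested members, 0.10 for replication and 0.10 for mitotic members, with 26 higher and 17 lower members. Against LPS replicates 2 and 3 alone, all LPS+bLF lungs lay above for 10 tested members (23.3%, beside 15.6% of all genes) and below for 3 (6.98%, beside 16.8%). Rrm2 and Nusap1 kept a lower mean in LPS+bLF lungs without LPS replicate 1, at -0.71 ± 0.34 and -0.64 ± 0.39. Muscle, squamous and brown fat markers also varied among LPS+bLF lungs: cardiac and brown fat markers summed to 1693 and 895.9 CPM in LPS+bLF replicate 2, and skeletal muscle and squamous markers to 3475 and 1181 CPM in LPS+bLF replicate 3. Their part in the result was not tested.

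For bLF against control, lactoferrin without LPS, 37 tested members had a higher and 6 a lower mean, beside 45.4% higher and 54.6% lower over all genes. At an unadjusted p under 0.05, 2 members (Prc1 and Mcm5) were higher, where 0.714% of all genes were higher and 0.663% lower. The groups were apart and higher for 7 members (Mcm5, Mcm7, Aurka, Kif20a, Tpx2, Prc1 and Top2a), where 4.34% of all genes were and 4.57% were apart and lower. The medians were 0.28 over the tested members, 0.17 for replication, 0.55 for mitotic members and -0.03 for all genes. A single library weighed on the mitotic value here too: bLF replicate 2 had the second highest mitotic average of the 12, and the mitotic median was 0.27 without it. Cdk1, for example, was at 1.21 FPKM in that lung and at 0.58 and 0.45 FPKM in the other bLF lungs. Cardiac and brown fat markers summed to 2185 and 249.9 CPM in bLF replicate 1, and brown fat markers to 480.3 CPM in control replicate 1. The median over the tested members was 0.31 without bLF replicate 1 and 0.40 without control replicate 1.

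For LPS+bLF against control, 36 tested members had a higher and 7 a lower mean, beside 50.3% higher and 49.7% lower over all genes. At an unadjusted p under 0.05, 3 members were higher (Ube2c, Tk1 and Top2a), where 2.63% of all genes were higher and 2.18% lower. The groups were apart for 13 members, all higher, where 6.65% of all genes were apart and higher and 5.74% apart and lower. They were the replication members Mcm5, Mcm6, Fen1 and Tk1 and the mitotic members Ccna2, Cdk1, Ube2c, Aurka, Plk1, Tpx2, Prc1, Mki67 and Top2a. The medians were 0.32 over the tested members, 0.26 for replication, 0.49 for mitotic members and 0.00 for all genes. These 3 lungs were the most alike for mitotic members, with library averages of 0.33 to 0.41. The comparisons against control share the 3 control lungs, so they are not independent of each other.

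Between LPS+bLF and bLF, 26 tested members had a higher and 17 a lower mean, beside 52% higher and 48% lower over all genes, and the medians were 0.06 over the tested members, 0.11 for replication, 0.01 for mitotic members and 0.01 for all genes. No member reached an unadjusted p under 0.05, where 1.65% of all genes were higher and 1.02% lower at that level. Fen1 was apart and higher, and Pold1, Kif23 and Nusap1 were apart and lower, where 6.1% of all genes were apart and higher and 6.53% apart and lower.

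The interaction asked whether the effect of lactoferrin differed with and without LPS, as LPS+bLF minus LPS less bLF minus control. It was below 0 for 39 and above 0 for 4 of the 43 tested members, beside 47.4% below and 52.6% above 0 over all genes. At an unadjusted p under 0.05, 7 members were below 0 (Rrm2, Nusap1, Birc5, Top2a, Ccna2, Tpx2 and Aurka), where 1.54% of all genes were below and 1.26% above. Rrm2 had -1.53 ± 0.49, Nusap1 -1.98 ± 0.73, Birc5 -2.77 ± 1.11 and Top2a -1.39 ± 0.58, each with adjusted p = 1. The medians were -0.66 over the tested members, -0.33 for replication, -1.11 for mitotic members and 0.02 for all genes. Without LPS replicate 1 they were -0.22, -0.05 and -0.51 for members, replication and mitotic members, and Rrm2 was at -1.36 ± 0.47 (adjusted p = 0.986).

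Further genes of the same processes were counted. Of 37 other replication genes 34 were tested, and for LPS over control 20 were higher and 14 lower with a median of 0.11. The 2 with the smallest p were Pola2 (-0.41 ± 0.15, adjusted p = 0.646) and Lig1, the ligase that seals Okazaki fragments (0.92 ± 0.38, adjusted p = 0.666), which was at 12.83 FPKM in LPS replicate 1 and 3.72 to 5.76 FPKM elsewhere. Of 31 other mitotic genes 19 were tested, of which 17 were higher and 2 lower with a median of 0.78. Racgap1, a partner of Kif23 at the central spindle, was at 3.14, 2.80 and 3.27 FPKM in LPS lungs, against 1.69, 1.07 and 1.83 in control lungs (1.09 ± 0.27, adjusted p = 0.297). Racgap1 thus lay above all control lungs in all 3 LPS lungs, as Rrm2 did. By FPKM its LPS+bLF lungs (2.89, 2.89 and 1.86) and its bLF lungs (2.11, 2.88 and 2.03) lay above all control lungs too. The LPS lungs overlapped both of these groups for Racgap1, but neither of them for Rrm2. Nuf2, a kinetochore subunit, was at 2.08, 0.86 and 0.86 FPKM in LPS lungs, against 0.52, 0.24 and 0.34 in control lungs (1.92 ± 0.58, adjusted p = 0.48). The CDK, cyclin D and E2F-RB genes (16 of 18 tested) had 9 higher and 7 lower and a median of 0.02.

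CDK inhibitors restrain the same kinases, and all 7 were tested. Cdkn1a, the p21 inhibitor that p53 induces, was at 39.75, 40.55 and 58.52 FPKM in LPS+bLF lungs, 388.49, 50.86 and 56.82 in LPS lungs, 66.08, 90.95 and 72.90 in bLF lungs, and 53.23, 43.57 and 51.57 in control lungs. LPS replicate 1, the lung with the most mitotic RNA, thus also held the most Cdkn1a (LPS over control 1.96 ± 0.71, adjusted p = 0.635). The lung with the second highest Cdkn1a, bLF replicate 2, also had the second highest mitotic average. The other libraries did not keep this order. LPS+bLF replicate 1 had the lowest Cdkn1a of the 12, at 39.75 FPKM, with a mitotic average of 0.41. In bLF replicate 3 Cdkn1a was at 72.90 FPKM and the mitotic average was 0.17. Cdkn2c and Cdkn1b had their lowest FPKM of the 12 in LPS replicate 1, at 6.97 and 8.03. Cdkn2d and Cdkn2a had their highest FPKM there, at 37.49 (16 to 21.83 elsewhere) and 2.66 (0.44 to 2.34 elsewhere). Between LPS and control, Cdkn1c, Cdkn2a, Cdkn2b and Cdkn2d differed by at most 0.55 on the log2 scale.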

How the data were processed

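Lung RNA of 12 mice (3 per group) was measured, 1 library each. Per the submitters' processing notes, HISAT2 2.1.0, RSEM 1.2.8 and the build mm10 were used, and the annotation and strand setting are not given in the sources used here. The files deposited by the authors hold an expected count and an FPKM per gene, per the file headers, and 4.12 to 5.91% of genes have a count that is not whole. Expected counts were rounded. Genes that reached 0.5 FPKM in 3 or more libraries were tested (13735 of 17920). Libraries were scaled with TMM factors and fitted with the quasi-likelihood test of edgeR 4.0.16 (R 4.3.3) as 4 group means over all 12 libraries, with 8 residual degrees of freedom. Tests were two-sided, p was Benjamini-Hochberg adjusted over all genes tested, and a gene was called under 0.05. SE of a log2 fold change comes from the F statistic, and levels are FPKM per library or mean ± SD.

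The members and gene lists were chosen with earlier results of these data known, so counts and medians over them are descriptions with no test. Each library is labelled as a separate mouse of its group. Values in every library are given for Mki67, Top2a, Cdk1, Ccnb1, Mcm2, Mcm5, Pcna, Rrm2, Ccnd1 and the 4 members with the smallest p in each comparison. All other members may be named, and of the other lists the 2 genes with the smallest p and the CDK inhibitors. Alternatives were RLE and upper-quartile factors, a stricter filter (a mean of 5 FPKM or more), no filter at all, DESeq2 1.42.0, limma 3.58.1 on log2(FPKM + 1) and on log2(FPKM + 0.1), only the groups compared, a replicate block and leaving out each library. Counts at an unadjusted p without LPS replicate 1 were added after seeing the data. In counts simulated for LPS versus control over 13735 genes, of which 200 were changed, edgeR recovered 20% of the changed genes at a log2 fold change of 1 and 77% at 2, with 8 false calls. limma recovered 18% and 78% with 5 false calls, and DESeq2 42% and 92% with 40. The changed genes were drawn only from those above a minimum mean count, which Rrm2 and Nusap1, among others, did not reach. A library that stands apart, as LPS replicate 1 does, was not simulated. These shares therefore do not hold for members with few counts. Coordinates and promoters come from RefSeq tables of GRCm38.p6, the build mm10, and near copies were sought with BLAST+ 2.17.0 in GENCODE transcripts.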

Additional observations from a re-analysis of the deposited data

Results flagged for a closer look

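For 15 of the 43 tested members (34.9%) the libraries of one effect lay on opposite sides with and without the other treatment, beside 1741 of 13735 genes (12.7%). Means here are of log2(CPM + 1), on which a single high library weighs less than on CPM. In 14 of them every LPS+bLF library lay below the LPS mean while every bLF library lay above the control mean. Besides Nusap1, their interaction log2 fold changes were -0.64 for Fen1, -0.33 for Pold1, -1.53 for Rrm2, -1.52 for Ccna2, -2.06 for Cdk1, -1.01 for Cdc20, -1.67 for Aurka, -1.26 for Plk1, -2.77 for Birc5, -0.64 for Kif23, -1.72 for Tpx2, -1.58 for Mki67 and -1.39 for Top2a. For Nusap1 (-1.98) and Prc1 (-0.85) every LPS+bLF library lay below the bLF mean while every LPS library lay above the control mean. Mki67 in bLF replicate 3 and Prc1 in LPS replicate 3 lay below the plain control mean of CPM, so these calls turn on the log scale. The interaction itself was tested with edgeR, and none of the 15 passed (adjusted p = 1 for each). The LPS mean here includes LPS replicate 1, and the median interaction over the tested members was -0.66 with it and -0.22 without it.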

How the results depend on the processing

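No member was called with edgeR under any scaling, filter, block or omission tried, and with limma none was. DESeq2 called 1 member for LPS versus control, Rrm2, and over all genes it called 139 for LPS versus control, 7 for LPS+bLF versus LPS, 1 for bLF versus control, 13 for LPS+bLF versus control, 2 for LPS+bLF versus bLF and 1 for the interaction, while limma on log2(FPKM + 1) called 2 for LPS versus control. With a mean of at least 5 FPKM, which left 14 members, the LPS versus control median was 0.31 over members and 0.16 for replication. The LPS+bLF versus LPS median was then -0.10 over members and -0.14 for mitotic members, and the interaction median was -0.30 over members, -0.12 for replication and -0.52 for mitotic members. With limma on log2(FPKM + 1) the LPS versus control medians were 0.35, 0.19 and 0.53 for members, replication and mitotic members, the mitotic LPS+bLF versus LPS median was -0.29, and the interaction medians were -0.33 for members and -0.57 for mitotic members. This scale draws low genes towards 0 by construction.

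Signs near 0 turned: Pcna in LPS versus control was 0.0068 with RLE factors, 0.0077 with DESeq2 and 0.0050 with only the groups compared, and in LPS+bLF versus LPS it was -0.0050 with upper-quartile factors, -0.0192 with a mean of at least 5 FPKM and -0.0049 with only the groups compared. Mcm5 in LPS+bLF versus LPS was -0.0099 with only the groups compared. The cause was not tested.

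Leaving out each library in turn, the LPS versus control medians ranged from 0.33 to 0.91 for members, 0.14 to 0.48 for replication and 0.41 to 1.22 for mitotic members, each lowest without LPS replicate 1, and genes called ranged from 0 to 25. LPS+bLF versus LPS ranged from -0.57 to 0.10, -0.31 to 0.10 and -0.99 to 0.10, each highest without LPS replicate 1, with 0 to 2 genes called. bLF versus control ranged from 0.21 to 0.40, 0.06 (without control replicate 2) to 0.26 (without control replicate 1) and 0.27 (without bLF replicate 2) to 0.65. LPS+bLF versus control ranged from 0.25 to 0.48, 0.15 (without control replicate 2) to 0.42 (without control replicate 1) and 0.39 to 0.62. LPS+bLF versus bLF ranged from -0.03 to 0.16, 0.07 to 0.15 and -0.12 to 0.18, and the interaction from -0.94 to -0.22, -0.39 to -0.0521 and -1.37 to -0.51, each weakest without LPS replicate 1. Members that turned sign in LPS versus control ranged from -0.15 to 0.41 (Mcm2), -0.0434 to 0.0381 (Pcna) and -0.33 to 0.49 (Ccnd1). In LPS+bLF versus LPS they ranged from -1.48 to 0.32 (Mki67), -0.84 to 0.10 (Top2a), -1.69 to 0.42 (Cdk1), -0.10 to 0.49 (Mcm2), -0.16 to 0.11 (Mcm5), -0.0321 to 0.0457 (Pcna) and -0.45 to 0.40 (Ccnd1).

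Over 18 pairs of libraries with the same replicate number, deviations from group means correlated at -0.709 to 0.581, 7 pairs exceeded 0.1, and 4 of 12 libraries correlated best with their own number, so the numbers were not taken as pairs. With the replicate block 0 members were called, and the LPS versus control medians were 0.72, 0.36 and 0.87. With 3 mice per group, and at the counts of low members such as Ccnb1, small differences were not detectable.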
